A study of Homo sapiens and Mus musculus with 8 samples.

Results

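ID proteins and the TGF-beta/BMP pathway were followed through 10 genes: the inhibitors of differentiation ID1, ID2, ID3 and ID4, the SMAD genes SMAD3, SMAD6 and SMAD7, and the receptor genes TGFBR1, TGFBR2 and BMPR1A. The genes were taken by symbol, ignoring case, and all 10 were found among the 20863 genes of the H146 table and among the 16833 genes of the F1339 table. H146 (NCI-H146) is a human and F1339 a mouse small cell lung cancer (SCLC) line. H146 was given vehicle or 0.5 µM decitabine for 96 h and F1339 vehicle or 0.5 µM decitabine for 72 h, with 2 libraries per arm (n = 2 throughout). Decitabine is a deoxycytidine analog that is built into DNA and traps the maintenance DNA methyltransferase DNMT1. Each species is represented by a single cell line. Treatments were done in duplicate, with nothing said of separate cultures, so p-values here reflect only the spread between libraries, which may be technical.

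TGF-beta, activin and BMP ligands bind pairs of type II and type I receptor kinases, which phosphorylate receptor SMADs: SMAD2 and SMAD3 for TGF-beta and activin, SMAD1, SMAD5 and SMAD9 for BMPs. These enter the nucleus with SMAD4, and among the genes they switch on are those of the inhibitory SMAD6 and SMAD7, which damp the receptors, and, under BMP, the ID genes. ID proteins have the helix-loop-helix dimerization domain but no DNA-binding basic region, so they take up E proteins such as TCF3, TCF4 and TCF12, the partners that neurogenic bHLH factors such as NEUROD1 need on DNA.

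The libraries held 61364041 to 67892360 gene-assigned reads, and 1 read was worth 0.960 to 1.08 normalized counts. Values are normalized counts unless said otherwise, given as mean ± SD over the 2 libraries of an arm, and fold changes run from vehicle to decitabine. Tests are limma fits on log2(normalized count + 1), 1 per line, and p-values were adjusted by the Benjamini-Hochberg method across every gene tested, with calls made at 0.05. In H146 5752 of 20783 tested genes were called, 27.7%, of which 15.4% were called higher and 12.3% lower. In F1339 limma called 0 of 16680, 0.00%, while 932 genes, 5.59%, had an unadjusted p under 0.05; edgeR called 0 and DESeq2 107. The libraries of F1339 stood further apart within an arm than those of H146: the median absolute log2 difference between libraries of the same arm was 0.30 in vehicle and 0.26 in decitabine for F1339 and 0.16 and 0.15 for H146. The neuroendocrine markers CHGA, SYP and INSM1 were abundant in every library of both lines, and all 10 listed neuroendocrine markers had a value. NEUROD1, also on that list, was low in H146, with a mean of 139 over its libraries. In H146 2 of the 10 were called higher and 2 lower, 40% against the 27.7% of all genes.

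The ID genes are compact genes, and the starts of all 4 hold more CG dinucleotides than the median promoter window. Their promoters are shown because these genes have the highest levels per length of the set in H146 and because decitabine acts on CG methylation. These are the 250 bases before the RefSeq start of the 3 ID genes that are the classical BMP targets, on GRCh38.p14, written 5′ to 3′ on the gene's strand with each CG in capitals. ID1 lies at chr20:31605039-31605288 on the plus strand, ID2 at chr2:8681806-8682055 on the plus strand and ID3 at chr1:23559502-23559751 on the minus strand.
ID1: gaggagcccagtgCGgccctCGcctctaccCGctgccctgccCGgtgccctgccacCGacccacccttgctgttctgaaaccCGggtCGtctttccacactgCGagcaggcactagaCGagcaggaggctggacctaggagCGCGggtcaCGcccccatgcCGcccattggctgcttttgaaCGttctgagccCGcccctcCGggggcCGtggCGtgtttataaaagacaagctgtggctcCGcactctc
ID2: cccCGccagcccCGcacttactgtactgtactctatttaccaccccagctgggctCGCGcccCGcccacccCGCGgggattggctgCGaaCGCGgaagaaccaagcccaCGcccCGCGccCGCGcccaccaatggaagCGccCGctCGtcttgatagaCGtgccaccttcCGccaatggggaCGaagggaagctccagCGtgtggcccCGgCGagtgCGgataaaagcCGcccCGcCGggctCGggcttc
ID3: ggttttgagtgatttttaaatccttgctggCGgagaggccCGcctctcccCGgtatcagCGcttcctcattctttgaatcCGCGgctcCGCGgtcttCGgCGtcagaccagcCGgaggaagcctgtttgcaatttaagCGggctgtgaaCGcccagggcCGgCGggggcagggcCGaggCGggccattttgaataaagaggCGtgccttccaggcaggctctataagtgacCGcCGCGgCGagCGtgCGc
In GENCODE release 29 on GRCh38 the genes span chr20:31605283-31606515 (ID1), chr2:8678845-8684453 (ID2) and chr1:23557918-23559794 (ID3), and the counted values cover their exons. The ID1 stretch holds 19, the ID2 stretch 29 and the ID3 stretch 24 CG dinucleotides. In the full windows of 300 bases (250 before and 50 after the start) the counts were 22 for ID1, 33 for ID2, 27 for ID3 and 39 for ID4, against a median of 14 and quartiles of 4 and 28 over 35116 RefSeq promoter windows. No methylation was measured here. The letters GGCGCC, which read the same on both strands and occur in BMP response elements of ID genes, were in none of the 4 ID windows and in 19.2% of all windows. Only the 300 bases of each window were searched, so this count cannot show whether the ID genes have such elements farther from the start. Over all 10 genes there are 24 windows, since several genes have more than 1 start, with 1 to 47 CG dinucleotides each, and 13 of the 24 lie above the median.

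In H146 decitabine moved ID2 and ID3 in opposite directions. ID2, the ID gene with the highest level per length in vehicle, stood at 18697 and 20326 in the vehicle libraries and at 15261 and 14222 in the decitabine libraries. Both decitabine libraries lay below both vehicle libraries, and the level fell from 19511 ± 1152 to 14742 ± 734 (log2 fold change -0.40 ± 0.11 SE, adjusted p 0.00552). ID3, also a BMP target and an antagonist of E proteins, stood at 5834 and 5879 in vehicle and at 7954 and 6962 in decitabine. The arms did not overlap here either, and the level rose 1.27-fold, from 5856 ± 32.3 to 7458 ± 702 (log2 fold change 0.35 ± 0.10 SE, adjusted p 0.0118). With decitabine replicate 2 left out, ID2 has an adjusted p of 0.0644, and with decitabine replicate 1 left out ID3 has 0.194, both above 0.05. Reads of ID2 and of the antisense gene ID2-AS1, whose exons overlap, cannot be told apart without strand. ID2-AS1 stood at 160.0 to 205 in the 4 libraries and was not called.

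ID1 and ID4 were not called in H146. ID1, the ID gene most used as a readout of BMP signalling, stood at 9128 and 9931 in vehicle and at 8530 and 7924 in decitabine. Its arms did not overlap, with decitabine lower, with an unadjusted p of 0.046, but the adjusted p missed the threshold (log2 fold change -0.21 ± 0.10 SE, adjusted p 0.125). ID4, which unlike the others has been described as also opposing ID proteins, stood at 14583 and 15934 in vehicle and at 16038 and 16841 in decitabine. Its decitabine libraries were the higher ones by a narrow margin (0.11 ± 0.10 SE, adjusted p 0.489).

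The order of levels within the ID family can be read per length. Per kilobase of the exons of GENCODE release 29, which counts every annotated exon and so understates genes with long minor isoforms, ID2 led in H146 vehicle with 8849 ± 522 normalized counts per kilobase. ID1 followed with 7729 ± 460, ID4 with 6509 ± 408 and ID3 with 3259 ± 18.0, and none of these neighbours overlapped. In decitabine ID4 (7013 ± 242), ID2 (6686 ± 333) and ID1 (6672 ± 347) overlapped with their neighbours, so that they had no order beyond their spread, and ID3 stayed below them at 4150 ± 390 per kilobase. The receptor and SMAD genes were all lower per length than the ID genes in both arms, from TGFBR1 at 629 ± 53.9 in vehicle and 772 ± 69.6 in decitabine down to SMAD6 at 5.58 ± 1.43 and 5.35 ± 0.698 per kilobase.

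**Figure D1:**
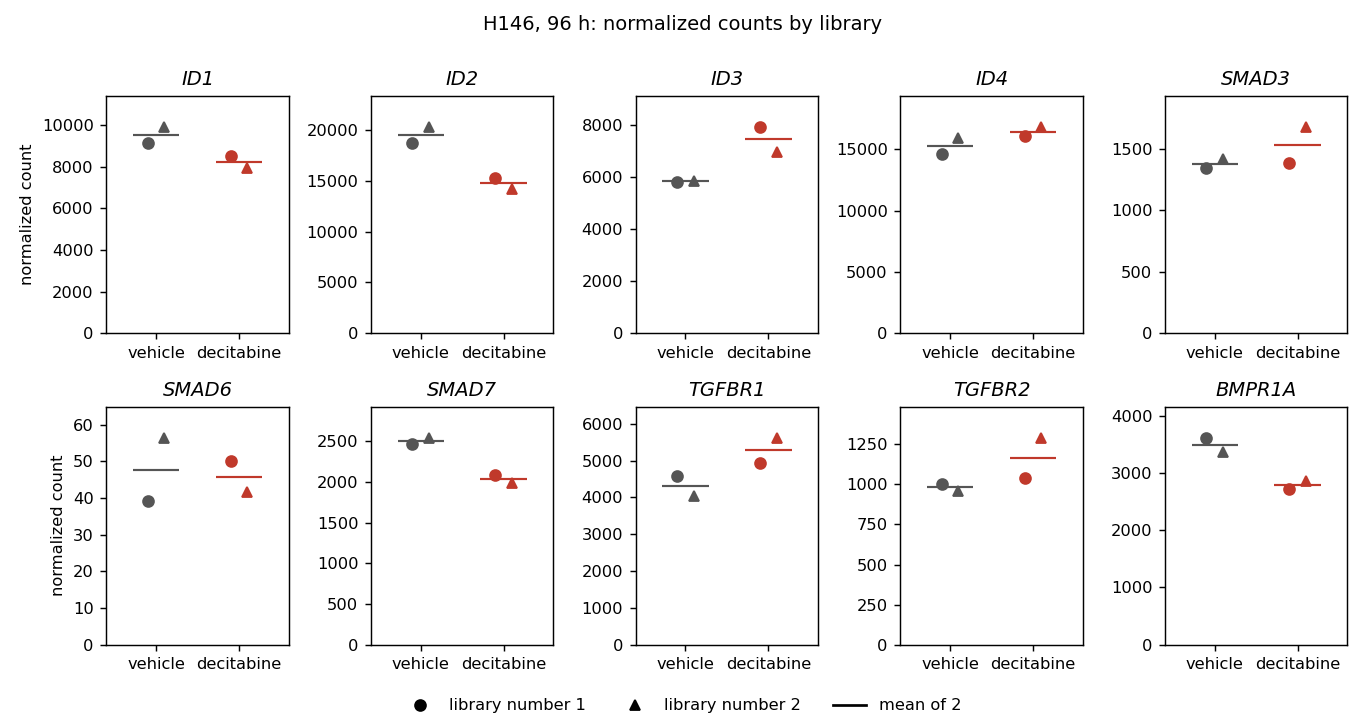
Normalized counts (vertical axes, each from 0) of the 10 genes in the H146 libraries at 96 h, with vehicle in grey and decitabine in red, circles for library number 1, triangles for number 2 and a bar at the mean of 2. ID2, BMPR1A and SMAD7 are lower and ID3 and TGFBR1 higher in both decitabine libraries, while SMAD6 and SMAD3 overlap.

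Among the receptors in H146 the type I receptor genes went different ways. BMPR1A, a type I receptor for BMPs, stood at 3615 and 3365 in vehicle and at 2725 and 2864 in decitabine. It fell from 3490 ± 177 to 2794 ± 98.0 (log2 fold change -0.32 ± 0.10 SE, adjusted p 0.0184), with arms that did not overlap. TGFBR1, the type I receptor for TGF-beta, stood at 4568 and 4046 in vehicle and at 4945 and 5619 in decitabine. It rose 1.23-fold, from 4307 ± 369 to 5282 ± 477 (0.29 ± 0.10 SE, adjusted p 0.0355), again without overlap. TGFBR2, the type II receptor that binds TGF-beta itself, had 1006 and 961 in vehicle and 1042 and 1292 in decitabine and was not called (0.24 ± 0.12 SE, adjusted p 0.155). The call of BMPR1A is lost on leaving out vehicle replicate 1 (adjusted p 0.114) or decitabine replicate 1 (0.131), and that of TGFBR1 on leaving out vehicle replicate 2 (0.258) or decitabine replicate 2 (0.312).

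Of SMAD3, SMAD6 and SMAD7, only SMAD7, an inhibitory SMAD, was called in H146. SMAD7, which recruits ubiquitin ligases to the TGF-beta receptor, stood at 2465 and 2542 in vehicle and at 2091 and 1990 in decitabine. It fell from 2504 ± 54.4 to 2041 ± 71.3 (log2 fold change -0.30 ± 0.10 SE, adjusted p 0.0321), and both decitabine libraries lay below both vehicle libraries. SMAD3, the receptor SMAD of TGF-beta and activin, had 1342 and 1417 in vehicle and 1386 and 1680 in decitabine, with overlapping arms (0.15 ± 0.11 SE, adjusted p 0.381). SMAD6, the inhibitory SMAD that acts mainly on BMP receptors, was scarce, with 39.1 and 56.5 in vehicle and 50 and 41.5 in decitabine, and was not called (-0.04 ± 0.32 SE, adjusted p 0.939). The call of SMAD7 is lost whichever library is left out (adjusted p 0.0591 to 0.188). Reads of SMAD3 cannot be told from those of the overlapping antisense gene AC087482.1 without strand, but the latter had 14.5 to 23.1 and was not called.

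Of the 10 genes in H146, 2 were called higher and 3 lower, against 27.7% of all genes tested called in either direction. An unadjusted p under 0.05 was found for 6 of the 10, against 37.8% of all genes. The arms of 8 of the 10 did not overlap, against 62.1% of all genes, and the median log2 fold change of the 10 was 0.03, against -0.01 for all genes. The sizes were modest: the called genes moved by 0.29 to 0.40 on the log2 scale, where the median absolute change of all called genes was 0.62. The authors' deposited table also has adjusted p-values under 0.05 for ID2 (2.95e-04), ID3 (0.00524), BMPR1A (0.0138), SMAD7 (0.0320) and TGFBR1 (0.0388) and for no other of the 10 in H146, where it calls 23.3% of its genes. When limma is run without a variance trend, none of the 10 is called (adjusted p 0.110 for ID2 to 0.237 for TGFBR1), with 4 at an unadjusted p under 0.05. Under that setting 2164 of all 20783 genes tested are called, and 6284 have an unadjusted p under 0.05.

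**Figure D2:**
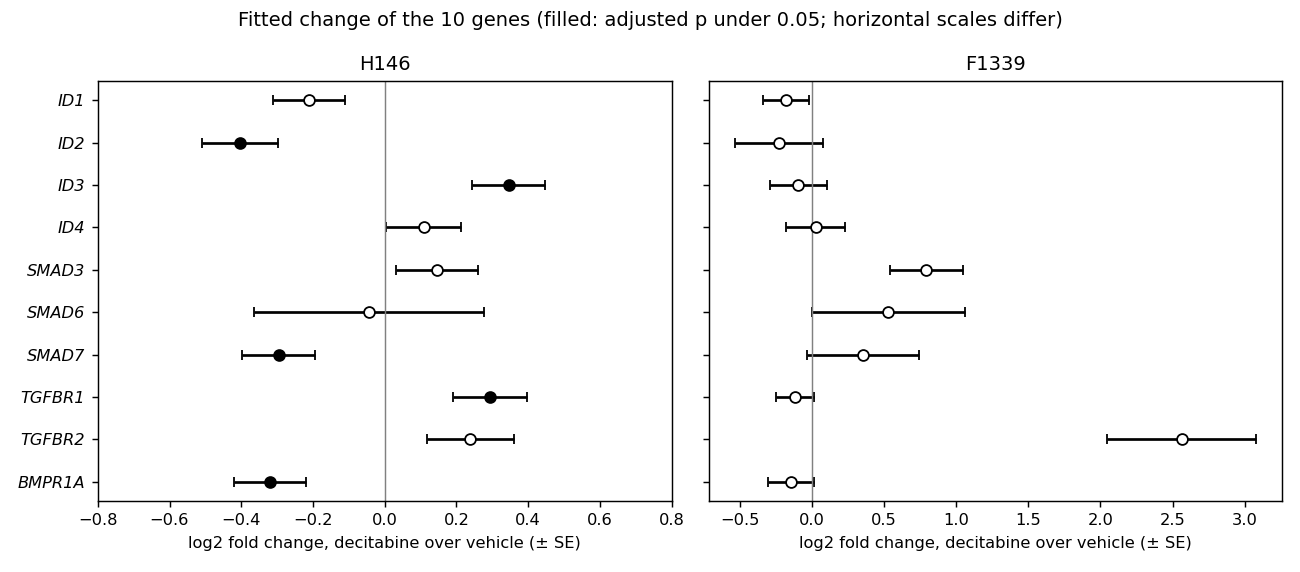
Fitted log2 fold change of decitabine over vehicle (horizontal axis, bars ± SE, the 2 panels on different scales) for the 10 genes in H146 and F1339, with filled points for an adjusted p under 0.05. In H146 ID2, SMAD7 and BMPR1A sit below 0 and ID3 and TGFBR1 above it, and in F1339 Tgfbr2 at 2.56 and Smad3 at 0.79 are farthest from 0 with none of the 10 called.

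In F1339 none of the 10 genes was called by limma as fitted here, by edgeR or by DESeq2. In limma 2 of the 10, Tgfbr2 and Smad3, had an unadjusted p under 0.05, against 5.59% of all genes. Tgfbr2 was near the limit of detection in vehicle, with 4.32 and 7.80 normalized counts, which are 4 and 8 reads, and reached 46.2 and 33.6 in decitabine, which are 47 and 35 reads. Both decitabine libraries lay above both vehicle libraries, a ratio of mean normalized counts of 6.58. The ratio of pooled reads was 6.47 with a 95% counting interval of 3.51 to 13.0, which covers counting error only. The fitted log2 fold change was 2.56 ± 0.52 SE, with an unadjusted p of 0.00472 and an adjusted p of 0.890 in limma. Tgfbr2 entered the test only through the decitabine libraries, since both vehicle libraries are under the minimum of 10, so it has no fitted value when either decitabine library is left out.

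Smad3 stood at 266 and 334 in F1339 vehicle and at 474 and 564 in decitabine. The arms did not overlap, with means of 299.7 ± 48.1 and 519 ± 64.0 and a fitted log2 fold change of 0.79 ± 0.25 SE, and limma gave an unadjusted p of 0.0269 and an adjusted p of 0.890. Tgfbr1 had 6233 and 5397 in vehicle and 5344 and 5347 in decitabine, so that its decitabine libraries were the lower ones by a narrow margin (-0.12 ± 0.13 SE, adjusted p 0.933 by limma). Among the 10 genes these 3 were those whose arms did not overlap, against 35.9% of all F1339 genes tested. In the authors' deposited table the adjusted p-values are 0.349 for Tgfbr2 and 0.387 for Smad3 in F1339, and no gene of the 10 is under 0.05.

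The other 7 genes overlapped between the arms in F1339. The inhibitory SMAD gene Smad6 stood at 908 and 352 in vehicle libraries 1 and 2 and at 1052 and 635 in decitabine libraries 1 and 2. Smad7 had 1300.2 and 688 in vehicle and 1494 and 980.0 in decitabine, and Id2 had 13167 and 9070 in vehicle and 11954 and 7284 in decitabine. In all 3 genes the library numbered 1 was the higher one in both arms: 2.58 times and 1.66 times for Smad6, 1.89 times and 1.52 times for Smad7, and 1.45 times and 1.64 times for Id2, in vehicle and in decitabine. These gaps were wider than the difference between the arm means of the same gene, which was 1.34-fold for Smad6 and 1.24-fold for Smad7, with decitabine higher, and 1.16-fold for Id2, with vehicle higher. The labels do not say what the library numbers stand for.

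The BMP target Id1 was abundant in F1339, with 20553 and 22077 in vehicle and 21184 and 16651 in decitabine. Id3 was at 21056 and 29724 in vehicle and at 22272 and 24701 in decitabine, and both decitabine values lay between those of vehicle. Id4 had 1582 and 1309 in vehicle and 1295 and 1658 in decitabine, and here the vehicle values lay between those of decitabine. The BMP receptor gene Bmpr1a stood at 5866 and 4704 in vehicle and at 4983 and 4541 in decitabine. The fitted changes of these 4 genes ran from -0.18 for Id1 to 0.03 for Id4 on the log2 scale, and limma gave adjusted p-values from 0.911 for Id1 to 0.993 for Id4. Their SEs were 0.16 to 0.20, and that of Id2 was 0.31, beside called changes of 0.29 to 0.40 in H146, and p-values past the threshold do not show that these genes were unchanged. The difference between the lines was not tested.

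**Figure D3:**
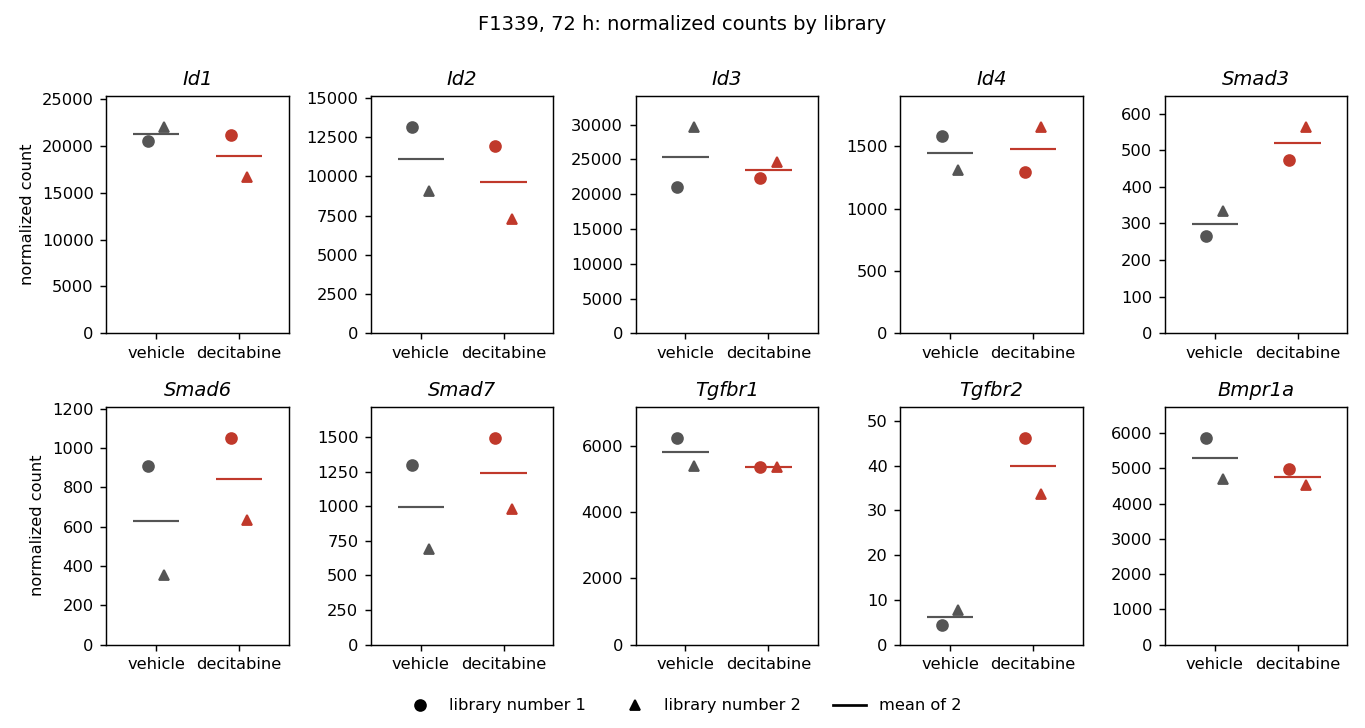
Normalized counts (vertical axes, each from 0) of the 10 genes in the F1339 libraries at 72 h, with vehicle in grey and decitabine in red, circles for library number 1, triangles for number 2 and a bar at the mean of 2. Tgfbr2 and Smad3 are higher in both decitabine libraries, and Smad6, Smad7 and Id2 are higher in the library numbered 1 of each arm.

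The rest of the pathway was read through 136 further genes in 6 roles, of which 106 were tested in H146 and 102 in F1339. In H146 31 were higher and 10 lower, 38.7% against the 27.7% of all genes, with a median log2 fold change of 0.12 against -0.01 for all genes. Under either other scaling of the libraries the counts were 30 higher and 10 lower and 32 higher and 10 lower. Without a variance trend the count is 17 higher and 5 lower, beside 1581 higher and 583 lower among all 20783 genes tested. The authors' deposited table has 36 of these genes at an adjusted p under 0.05, where it calls 23.3% of its genes. A low gene can enter the test through its decitabine libraries. LEFTY1, called higher by limma, had 5.02 and 12.3 in vehicle, so it reached the minimum of 10 in 2 libraries only with decitabine. Its adjusted p in the authors' deposited table is 0.158.

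Ligand genes moved both ways in H146, with 6 of 19 tested higher and 3 lower and a median log2 fold change of 0.01. That is 47.4% called, against 27.7% of all genes. TGFB1, the ligand of TGFBR2 and TGFBR1, went from 734 and 658 in vehicle to 1459 and 1314 in decitabine, a 1.99-fold rise with separate arms (0.99 ± 0.12 SE, adjusted p 5.6e-07 by limma). LEFTY2, a secreted antagonist of NODAL, rose 2.78-fold to 81.6 ± 3.38, and GDF15, a stress-induced member of the ligand family, was the steepest of the named ligands at 1.61 on the log2 scale.

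Of 13 other receptor and co-receptor genes tested in H146, 3 were higher and 1 lower, 30.8% against the 27.7% of all genes. The co-receptor genes ENG (67.5 ± 7.56 to 129 ± 14.3; log2 fold change 0.92) and RGMA (4569 ± 53.2 to 6251 ± 394; 0.45) rose, and TGFBR3, the betaglycan gene, fell from 958 ± 134 to 521 ± 46.4 (-0.87, adjusted p 1.8e-05). Of 20 SMAD and regulator genes 1 was higher and 1 lower, 10% against the 27.7% of all genes. SMAD9, a receptor SMAD of BMPs, rose from 11566 ± 421 to 16026 ± 1033 (0.47), and SKI, a corepressor of SMADs, fell from 2521 ± 32.8 to 2061 ± 46.7 (-0.29, adjusted p 0.0337). The call of ENG is lost when decitabine replicate 1 is left out (adjusted p 0.103), and that of SKI with any library left out (0.0775 to 0.170). Without a variance trend RGMA (0.0851), SMAD9 (0.0833) and SKI (0.158) are not called.

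Of 22 tested genes of secreted antagonists and latent TGF-beta binding proteins in H146, 8 were called higher, 2 lower and 12 neither, where 15.4% of all genes were called higher and 12.3% lower. Their median log2 fold change was 0.45. The authors' deposited table has 8 of these genes at an adjusted p under 0.05, where it calls 23.3% of its genes. FST, the gene of the activin antagonist follistatin, went from 2818 ± 56.7 to 5365 ± 527 (log2 fold change 0.93, adjusted p 1.2e-07 by limma). FSTL3, a relative of FST, fell from 277 ± 16.0 to 143 ± 2.06 (-0.94).

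Of 17 tested TGF-beta and BMP target genes in H146, 9 were higher and 0 lower, where 15.4% of all genes were called higher and 12.3% lower. An unadjusted p under 0.05 in limma was found for 9 of the 17, against 37.8% of all genes. TGFBI, a matrix protein gene named for its induction by TGF-beta, stood at 15.0 and 12.3 in vehicle and at 330.0 and 351 in decitabine, a 24.9-fold rise (log2 fold change 4.54 ± 0.27 SE, adjusted p 1.5e-12 by limma). COL1A1 rose 2.03-fold to 116 ± 8.39, and HEY1, which is also a Notch target, rose 1.80-fold to 1420 ± 44.3. With decitabine replicate 1 left out, the adjusted p of COL1A1 is 0.0652. The target list holds genes that other signals also induce, and the ID genes and SMAD7, targets of the same pathway, are not on it. Among those left off, ID2 and SMAD7 were called lower and ID3 higher in H146, so the absence of lower calls holds for this list only.

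Among 15 tested bHLH factor genes, the families that ID proteins meet directly or through shared partners, 4 were higher and 3 lower in H146. That is 46.7% called, against 27.7% of all genes. The authors' deposited table has 5 of these genes at an adjusted p under 0.05, where it calls 23.3% of its genes. The E protein gene TCF3 stood at 5937 and 5802 in vehicle and at 4701 and 4272 in decitabine and fell (log2 fold change -0.39 ± 0.10 SE, adjusted p 0.00420). TCF4 (0.12) and TCF12 (-0.09), the other E protein genes, were not called. NEUROD1 rose from a low level to 247 ± 63.0 (log2 fold change 2.98). ASCL2 fell (-1.78) and LYL1 rose (1.33, from 36.0 ± 1.57 to 92.5 ± 9.20). TCF3, TCF4 and TCF12 in H146 were chosen after their values were seen. TCF3 is not called when decitabine replicate 2 is left out (adjusted p 0.0696) or without a variance trend (0.113), nor is ASCL2 without a variance trend (0.0584).

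**Figure D4:**
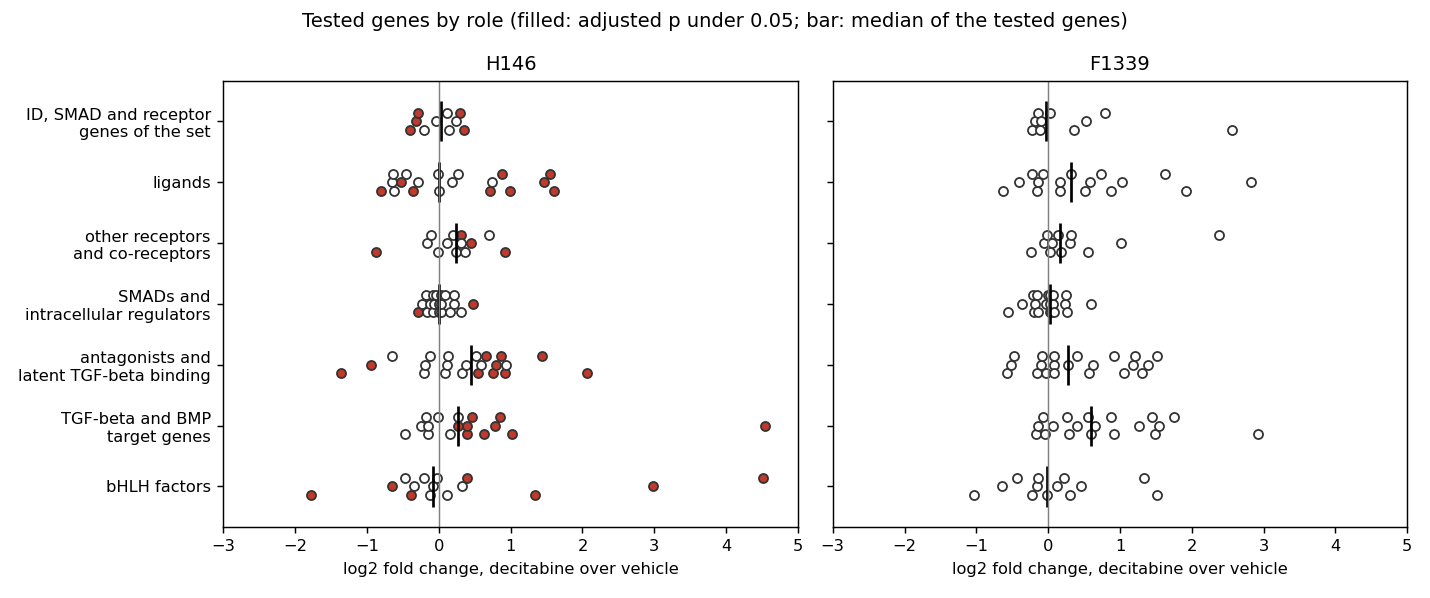
Log2 fold change of decitabine over vehicle (horizontal axis) for the tested genes of each role in H146 and F1339, 1 point a gene, filled for an adjusted p under 0.05, with a bar at the median of the tested genes of the role. In H146 the 9 called target genes all lie above 0, with TGFBI at 4.54, and in F1339 no point is filled.

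In F1339 limma called none of the 102 further genes tested, and edgeR called 0 and DESeq2 2. In limma 12 of the 102 had an unadjusted p under 0.05, against 5.59% of all genes. The median log2 fold change of the 19 target genes tested was 0.59 and that of all F1339 genes -0.01. The most abundant genes of the roles included Bmp8b (5237 ± 352 and 3409 ± 556), Bmpr2 (0.18 on the log2 scale), Nbl1 (-0.10) and Atoh8 (0.56), none of them called. Tgfb1, chosen after its values were seen, stood at 71.3 and 55.6 in vehicle and at 207 and 185 in decitabine (log2 fold change 1.62 ± 0.33 SE; unadjusted p 0.00476 and adjusted p 0.890 in limma). The authors' deposited table gives adjusted p-values of 0.0308 for Tgfb1 and 0.0203 for Gdf15 in F1339, and these are the 2 genes that DESeq2 called.

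Marker lists of other cell types differed in how many members were called in H146, where 15.4% of all genes were called higher and 12.3% lower. Of 5 tested endothelial markers 4 were higher and 0 lower, with a summed level of 493 to 583 in vehicle and 1403 to 1434 in decitabine, and of 7 fibroblast markers 4 were higher and 1 lower, with 11256 to 12155 in vehicle and 14947 to 16038 in decitabine. The 4 immune markers with a row summed to 618 to 666 in vehicle and 628 to 671 in decitabine, with 1 called higher and 1 lower. KDR, LUM, CD3E, LYZ and CD68 had no row among the H146 genes analysed here. In F1339 none of these markers was called: the 5 endothelial ones summed to 410 to 462 in vehicle and 770 to 1233 in decitabine, the 5 fibroblast ones to 1827 to 1883 and 1814 to 2118, and Cd68, the sole immune marker with a row, stood at 47.5 to 99.5 and 72.7 to 101.7. The neuroendocrine markers in H146 summed to 301786 to 302830 in vehicle and 285912 to 300956 in decitabine. In F1339 they summed to 222444 to 325642 in vehicle and 194651 to 257951 in decitabine. ENG and COL1A1 are expressed by such cells, and the part of other cell types in the results was not tested. H146 and F1339 are cell lines and not tissue, and a bulk library does not separate the RNA of different cells within a line.

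The genes whose profiles over the 4 H146 libraries were most like those of the called genes were found by the root mean square distance of log2 values centred on their mean. RGS12 (0.0061) and AL121899.1 (0.0080) were nearest to ID2, HSD17B14 (0.0071) and FEV (0.016) to ID3, and MARS (0.0040) and MIR548XHG (0.0056) to BMPR1A. With 4 libraries such closeness is common: 200 genes lay within 0.05 of ID2, 195 of ID3 and 383 of BMPR1A.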

How the data were processed

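The submitters' processing notes name STAR 2.5.2b, Trimmomatic 0.36, DESeq2 and featureCounts (Subread 1.5.2), with GRCh38 as the build, even for mouse. The mouse build, annotation and strandedness were "not given in the sources used here". The authors deposited, for each line, a signal per gene and library: normalized counts on a linear scale, in which 100.0% of values are whole multiples of 1 read within 0.01 read. Beside it stand the authors' deposited log2 fold change and p-value, whose sign runs from decitabine to vehicle in H146 and was turned around here. In a pair of H146 libraries 1 read is worth so nearly 1 that count tests were run for F1339 only. No column of per-sample values was left out.

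Genes with at least 10 in at least 2 libraries of a line were fitted per line with limma 3.58.1 (R 4.3.3, variance trend), on log2(normalized count + 1). Fold changes on that scale understate those of low genes. edgeR 4.0.16 and DESeq2 1.42.0 on recovered reads were alternatives in F1339, beside other pseudocounts, filters, scalings, a replicate block and leaving out each library. The fits were tested on simulated data. Replicates were numbered as in the labels. The lines were normalized separately, so no test was made between them. Genes were named by rule: the 10 genes, per role and line up to 3 called genes with the largest change and a mean of at least 50, or else the 2 most abundant, and the 2 nearest profiles of up to 3 called genes. Members and lists were chosen with earlier results of these data known. Positions and lengths come from GENCODE release 29 (20757 of 20863 H146 IDs matched), promoters from RefSeq (GRCh38.p14; all 10 genes matched). Some genes that this rule names are not reported here.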

Additional observations from a re-analysis of the deposited data

Results flagged for a closer look

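The arms of TGFBR1 did not overlap in either of the 2 lines and lay in opposite order. Its decitabine libraries lay above both vehicle libraries in H146 (log2 fold change 0.29) and below both in F1339 (-0.12). Arms that did not overlap were found for 62.1% of all genes tested in H146 and 35.9% in F1339. The difference between the lines was not tested, since their tables were normalized separately and the times differ, and the F1339 change is smaller than its SE of 0.13.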

How the results depend on the processing

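The number of the 10 genes called in H146 (5) was the same with other pseudocounts, with no filter or a filter of at least 50, and with each library scaled to an equal total or an equal upper quartile. It was 0 without a variance trend, 3 with the replicate block, and 2 to 3 with 1 library left out. With the replicate block SMAD7 (adjusted p 0.0562) and TGFBR1 (0.0559) lost their calls. The number of further pathway genes called in H146 (41) fell to 22 without a variance trend, and stayed within 1.5 times otherwise. Over all H146 genes the 5752 calls fell to 2164 without a variance trend, and to 3536 and 3729 without decitabine replicate 1 and 2. In F1339 the replicate block called 2 of the 10 genes, Smad3 (adjusted p 0.0175) and Tgfbr2 (0.0137), and 20 further pathway genes, and over all genes 1325 against 0. DESeq2 called 2 pathway genes and 107 genes in all. Deviations from the arm means of same-numbered libraries correlated at 0.69 in F1339 and at -0.03 in H146 across genes; with 2 pairs this does not show that the numbers pair cultures. Signs turned for 9 of 137 F1339 member values and 2 of 119 in H146. Leaving out 1 library at a time moved the log2 fold changes of F1339 from -0.30 to 0.016 for Bmpr1a (turned without vehicle replicate 1), -0.59 to 0.13 for Id2 (0.04 without vehicle replicate 1), -0.34 to 0.16 for Id3, -0.15 to 0.20 for Id4 (-0.11 without vehicle replicate 2), -0.15 to 1.21 for Smad6 and -0.10 to 0.81 for Smad7. SMAD6 in H146 ranged from -0.30 to 0.22 (0.09 without decitabine replicate 2). Id3 was at 0.0018 with an equal total. The cause of these changes was not tested. With 2 libraries an arm, an exact two-sided permutation test cannot go below 0.333, so only fits across all genes were used. The planned edgeR and DESeq2 alternatives were not run in H146, and Tgfbr2 in F1339 had no value under the filter of at least 50 or without decitabine replicate 1 or 2.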
